A study of Mus musculus with 6 samples.

Results

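The transcripts described here are 9 genes of the glucocorticoid stress response in the mouse hippocampus, picked by gene name from the deposited expression table of 33385 genes. They are the receptor genes Nr3c1 and Nr3c2, the steroid-activating enzyme gene Hsd11b1, the target genes Sgk1, Fkbp5, Tsc22d3, Errfi1 and Zbtb16, and the stress-peptide receptor gene Crhr1. All 9 were in the table and all 9 passed the filter on low counts, which 20946 genes passed in all. The knockdown group held 3 hippocampal libraries from mice with floxed Bcas2 (Bcas2F/F) that had been injected with AAV2/9-Syn-cre, an adeno-associated virus with Cre recombinase under the synapsin promoter, which is active in neurons. The control group held 3 libraries from Bcas2F/F mice injected with AAV-vehicle; the labels call their genotype WT, but they carry the same floxed alleles. The labels give no strain, age, sex or time of tissue collection. They also leave unsaid whether each library is 1 animal, so a p-value here covers only library-to-library spread, which may be partly technical. The question addressed is whether this hormone pathway differs in hippocampi whose neurons received Cre.

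Corticosterone, the main glucocorticoid of rodents, enters cells and binds 2 related nuclear receptors. The mineralocorticoid receptor binds it with high affinity and is abundant in the hippocampus, while the glucocorticoid receptor is filled mainly during stress and at the daily hormone peak. The hormone-bound glucocorticoid receptor sits on DNA elements as a dimer and raises or lowers the transcription of nearby genes. Among the genes it raises are those of proteins that damp the hormone's own action, such as FKBP5.

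In the table's coordinates, on build GRCm39 per the submitters' processing notes, the receptor and enzyme genes lay with Nr3c1 at chr18:39543598-39624352 (minus strand), Nr3c2 at chr8:77626070-77971641 (plus strand) and Hsd11b1 at chr1:192903942-192925869 (minus strand). The target genes lay with Sgk1 at chr10:21758083-21875797 (plus strand), Fkbp5 at chr17:28618068-28736498 (minus strand), Tsc22d3 at chrX:139440277-139501408 (minus strand), Errfi1 at chr4:150938376-150953349 (plus strand) and Zbtb16 at chr9:48565597-48747522 (minus strand), and Crhr1 at chr11:104023681-104066349 (plus strand).

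The libraries held 55914768 to 76481458 deposited counts each. Bcas2, the floxed gene, was at 9.08, 9.17 and 8.87 FPKM (fragments per kilobase of transcript, scaled to library depth) in the knockdown libraries, against 9.87, 9.71 and 9.44 FPKM in the controls. The gap is small for a label of knockdown, with a log2 fold change of -0.07 (95% interval -0.23 to 0.08; edgeR adjusted p = 0.861), and the sum over all exons and all cells does not show how many neurons lost the floxed part. In bulk tissue, fewer cells of a type and less RNA per cell cannot be told apart. Hippocampal excitatory neuron markers were abundant in every library, with summed levels of 767 to 973 FPKM in the knockdown group and 819 to 911 FPKM in the controls. Control replicates 2 and 3 alone had counts for Y-linked genes. No knockdown library had them, so the effects of group and of sex cannot be fully told apart here. Control replicate 3 also had choroid plexus transcripts, with 10 markers summing to 4934 FPKM there and to 26.1 to 53.8 FPKM in the other 5 libraries. Knockdown replicate 2 is the library that stood apart for the genes described here, and it was singled out after its values were seen.

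Promoter sequence is shown for the 3 genes with the largest excess in that library, Sgk1, Fkbp5 and Tsc22d3. Each stretch is the 250 bases before a transcription start in RefSeq, build GRCm38.p6, written 5′ to 3′ on the gene's strand. The letters searched were a palindrome to which a receptor dimer binds, AGAACA and TGTTCT with any 3 bases between them, and a single arm of it, AGAACA, read on both strands as AGAACA or TGTTCT. The palindrome contains both arms, and it reads the same way on either strand. In the Sgk1 stretch, on the plus strand at chr10:21993640-21993889, capitals mark the whole palindrome and, upstream of it, a further arm that begins 242 bases before the start. In the Tsc22d3 stretch, on the minus strand at chrX:140600523-140600772, they mark an arm. The Fkbp5 stretch, on the minus strand at chr17:28486150-28486399, has no capitals because it holds neither. Sgk1 had 6 starts with sequence, and the one shown was picked because it holds the palindrome. Tsc22d3 had 3, and the one shown was picked because it holds an arm. Fkbp5 had 1.
Sgk1: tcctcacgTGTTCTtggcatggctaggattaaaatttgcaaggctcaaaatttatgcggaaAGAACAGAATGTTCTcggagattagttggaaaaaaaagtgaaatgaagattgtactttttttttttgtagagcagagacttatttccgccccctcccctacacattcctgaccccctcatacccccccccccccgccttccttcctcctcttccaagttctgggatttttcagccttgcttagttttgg
Tsc22d3: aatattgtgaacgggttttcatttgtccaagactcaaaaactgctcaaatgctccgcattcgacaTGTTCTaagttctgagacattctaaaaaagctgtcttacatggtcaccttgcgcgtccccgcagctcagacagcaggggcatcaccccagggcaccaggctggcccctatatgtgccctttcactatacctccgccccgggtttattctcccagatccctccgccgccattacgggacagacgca
Fkbp5: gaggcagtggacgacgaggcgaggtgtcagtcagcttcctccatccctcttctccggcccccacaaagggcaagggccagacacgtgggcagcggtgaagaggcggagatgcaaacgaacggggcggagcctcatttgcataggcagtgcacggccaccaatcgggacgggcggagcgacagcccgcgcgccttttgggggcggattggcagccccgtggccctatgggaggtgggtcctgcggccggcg

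The Sgk1 palindrome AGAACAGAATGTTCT begins 189 bases before that start, at chr10:21993701-21993715, and matches all 12 fixed letters. RefSeq windows of 300 bases (250 before and 50 after a start) were supplied for 7 of the 9 genes, 15 windows in all. The Sgk1 window shown was the only 1 of the 15 with the palindrome. Over all 32851 windows of that length, 3 held it, which is 0.00913%, and 54 (0.164%) held it with at most 1 mismatch in the fixed letters. An arm was present in 4 of the 15 windows, 3 of them of Sgk1 and 1 of Tsc22d3, against 19.0% of all windows. Among 26 further target genes of the receptor, 22 had windows, and 0 of their 30 windows came within 1 mismatch of the palindrome. An arm was present in 4 of those 30 (13.3%), against the same 19.0% of all windows. A match in these letters is a description and does not show that a receptor was bound, and windows this short leave out distant elements.

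No difference between the knockdown and control groups passed the test for any of the 9 genes. edgeR's quasi-likelihood test with Benjamini-Hochberg adjustment over all 20946 genes called 0 of 9 at an adjusted p under 0.05, where it called 0% of all tested genes. At an unadjusted p under 0.05, 1 of 9 was higher in the knockdown group, against 3.03% of all tested genes, and 0 of 9 were lower, against 3.16%. DESeq2 also called 0 of the 9 at an adjusted p under 0.05, where it called 0.486% of the 15221 genes to which it gave an adjusted p. The gene at an unadjusted p under 0.05 was not the same with both tools. It was Fkbp5 with edgeR, which DESeq2 put at an unadjusted p of 0.0797. With DESeq2 it was Tsc22d3, higher at an unadjusted p of 0.0233, where 3.25% of all 20946 tested genes were higher at that threshold. The groups overlapped for every one of the 9, whereas 13% of all tested genes had groups that did not overlap, 5.47% with the knockdown higher and 7.5% with it lower. The feature that recurs through the genes below is 1 library: knockdown replicate 2 was the highest of the 6 libraries for 6 of the 9 genes, against 19.8% of all tested genes, and the lowest for 2 of 9, against 24.1%.

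The glucocorticoid receptor gene Nr3c1 was at 11.4, 7.12 and 9.75 FPKM in the knockdown libraries, against 11.1, 10.9 and 10.2 FPKM in the controls. Knockdown replicate 2 was the lowest library, at 73.0% of the next lowest, and the other 5 libraries spanned a 1.17-fold range. The group means were 9.41 ± 2.14 FPKM in the knockdown and 10.7 ± 0.473 FPKM in the controls (SD, n = 3 each). edgeR put the log2 fold change at -0.17 (SE 0.154; adjusted p = 0.866). Without knockdown replicate 2 it was -0.01 (95% interval -0.22 to 0.2).

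Nr3c2, the mineralocorticoid receptor gene, was at 15.5, 18.7 and 20.6 FPKM in the knockdown libraries, against 24.4, 18.5 and 21.5 FPKM in the controls. It did not set knockdown replicate 2 apart: the lowest library was knockdown replicate 1 and the highest control replicate 1. Means were 18.3 ± 2.61 FPKM in the knockdown and 21.5 ± 2.93 FPKM in the controls (SD, n = 3 each), with a log2 fold change of -0.21 (SE 0.137; edgeR adjusted p = 0.83), and -0.23 without knockdown replicate 2. With a term for the libraries with Y-linked counts, the Nr3c2 log2 fold change was -0.4. Per unit of length, Nr3c2 exceeded Nr3c1 in all 6 libraries. The ratio of the FPKM levels, Nr3c2 over Nr3c1, was 1.36, 2.63 and 2.12 in the knockdown libraries, against 2.19, 1.7 and 2.1 in the controls. Knockdown replicate 2 thus had the highest ratio and knockdown replicate 1 the lowest.

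Hsd11b1 encodes the enzyme that regenerates active corticosterone inside cells, and it had the lowest control mean of the 9 genes. Its level was 2.67, 4.74 and 3.7 FPKM in the knockdown libraries, against 4.48, 3.94 and 3.68 FPKM in the controls. The knockdown libraries held both the highest and the lowest value, so the groups overlapped fully. The log2 fold change was -0.1 (SE 0.21; edgeR adjusted p = 0.942), and it turned to 0.09 without knockdown replicate 1.

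**Figure D1:**
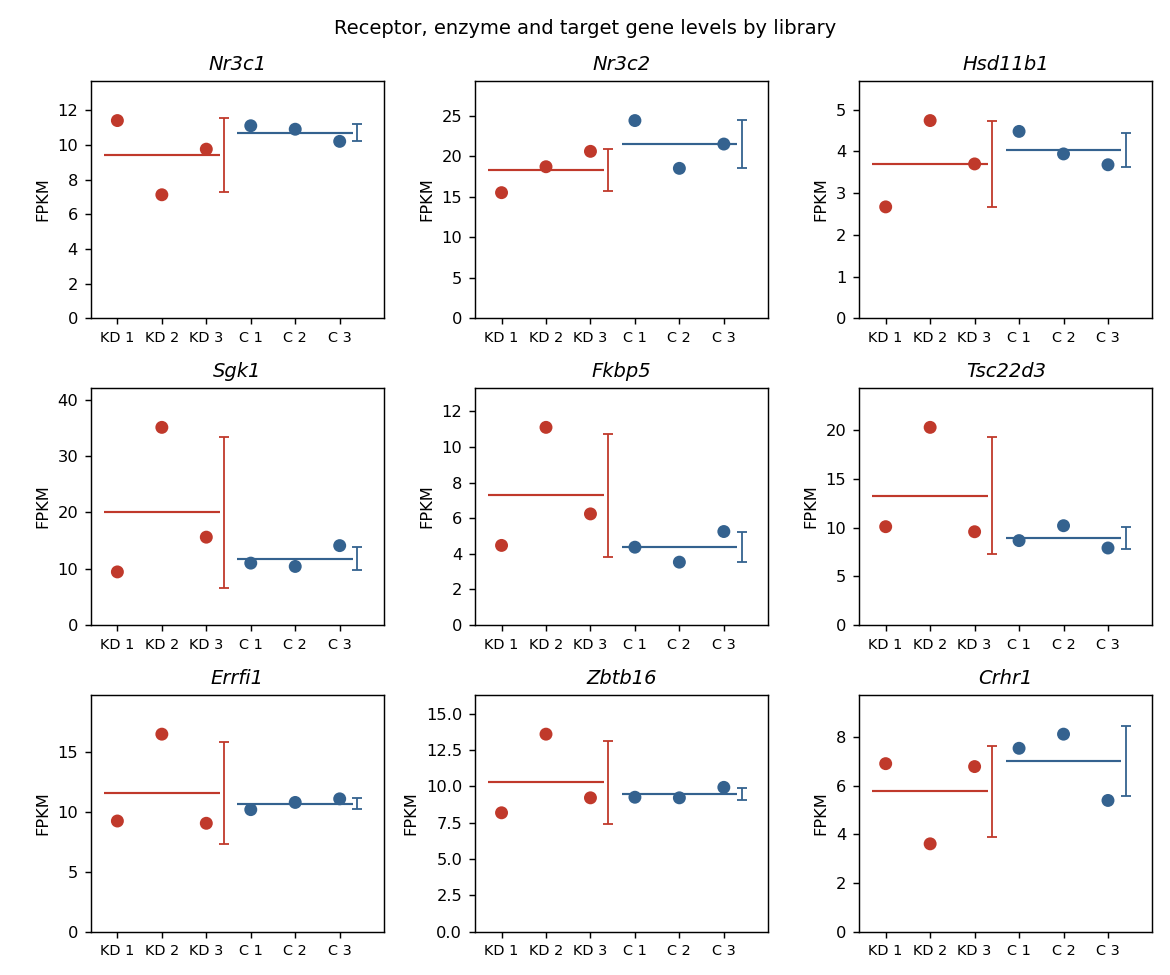
Level of each of the 9 genes in FPKM (y axis, from 0) in every library (x axis; KD 1 to 3, knockdown, red; C 1 to 3, control, blue). Horizontal lines are group means and the bars beside them SDs (n = 3 each). Knockdown replicate 2 is the highest point for Sgk1, Fkbp5, Tsc22d3, Errfi1, Zbtb16 and Hsd11b1 and the lowest for Nr3c1 and Crhr1.

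Sgk1, a kinase that glucocorticoids induce and that regulates ion channels and transporters, showed the widest range of the 9 genes. It was at 9.43, 35.1 and 15.6 FPKM in the knockdown libraries, against 10.99, 10.4 and 14.1 FPKM in the controls. Knockdown replicate 2 stood 2.25-fold above the next library and 3.19-fold above the median of the other 5, which themselves spanned a 1.65-fold range. The means, 20.03 ± 13.4 FPKM in the knockdown and 11.8 ± 2.01 FPKM in the controls (SD, n = 3 each), gave a log2 fold change of 0.78 (95% interval -0.22 to 1.79; edgeR adjusted p = 0.806). Without knockdown replicate 2 the value was 0.1 (95% interval -0.46 to 0.66).

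Fkbp5 encodes a co-chaperone that sits on the receptor's Hsp90 complex and lowers its affinity for hormone. Its level was 4.47, 11.1 and 6.24 FPKM in the knockdown libraries, against 4.37, 3.53 and 5.25 FPKM in the controls. Knockdown replicate 2 was 1.79-fold above the next library, which was knockdown replicate 3, while knockdown replicate 1 lay among the controls. The log2 fold change of 0.76 (SE 0.321; 95% interval 0.01 to 1.51) had an unadjusted edgeR p of 0.0482 and an adjusted p of 0.792, and 2 of the 3 knockdown libraries lay above every control. It was 0.31 (95% interval -0.18 to 0.79) once knockdown replicate 2 was left out. Permuting the group labels over all 20 assignments (exact, two-sided, on log2 of FPKM + 1) gave p = 0.2, where 0.1 is the smallest value that 3 against 3 libraries allow.

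Tsc22d3 encodes GILZ, a leucine zipper protein that mediates part of the anti-inflammatory action of glucocorticoids. It was at 10.1, 20.3 and 9.58 FPKM in the knockdown libraries, against 8.67, 10.2 and 7.91 FPKM in the controls. Knockdown replicate 2 had 1.99-fold the level of the next library, and the other 5 lay within a 1.29-fold range. The log2 fold change was 0.6 (SE 0.286; edgeR adjusted p = 0.798) with all libraries and 0.16 without knockdown replicate 2. Leaving out other libraries moved which of the 9 genes were higher at an unadjusted edgeR p under 0.05. Without knockdown replicate 1 they were Sgk1, Fkbp5 and Tsc22d3, against 3.02% of all tested genes. Without knockdown replicate 3 it was Tsc22d3 alone, against 2.3%, and without control replicate 3 Fkbp5 alone, against 2.28%. There were 0 of 9 without control replicate 1, against 2.16%, and 0 of 9 without control replicate 2, against 4.07%.

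Errfi1, an inhibitor of the EGF receptor kinase, was at 9.25, 16.5 and 9.06 FPKM in the knockdown libraries, against 10.2, 10.8 and 11.1 FPKM in the controls. Here the knockdown libraries lay on both sides of the controls, with replicate 2 being 1.49-fold above the next library and replicates 1 and 3 below all controls. The edgeR log2 fold change was 0.14 (SE 0.227; adjusted p = 0.92) with every library. Without knockdown replicate 2 its sign turned, to -0.21 (95% interval -0.39 to -0.02). There edgeR gave an unadjusted p of 0.0357 and an adjusted p of 0.942. In that smaller fit Errfi1 was the 1 gene of the 9 that was lower at an unadjusted p under 0.05, against 2.47% of all tested genes, and 0 of 9 were higher, against 2.03%.

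Zbtb16 encodes PLZF, a zinc finger transcription factor that glucocorticoids induce. Its level was 8.19, 13.6 and 9.22 FPKM in the knockdown libraries, against 9.26, 9.22 and 9.94 FPKM in the controls. Knockdown replicate 2 was again the highest, 1.37-fold above the next library. The log2 fold change of 0.15 (SE 0.179; edgeR adjusted p = 0.895) became -0.11 without that library.

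Crhr1, the main receptor of corticotropin-releasing hormone in the brain, was at 6.9, 3.61 and 6.78 FPKM in the knockdown libraries, against 7.53, 8.11 and 5.39 FPKM in the controls. It was lowest in knockdown replicate 2, at 67.0% of the next lowest library, control replicate 3. Means of 5.76 ± 1.87 FPKM in the knockdown and 7.01 ± 1.43 FPKM in the controls (SD, n = 3 each) gave a log2 fold change of -0.26 (SE 0.269; edgeR adjusted p = 0.88), and -0.02 without knockdown replicate 2.

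**Figure D2:**
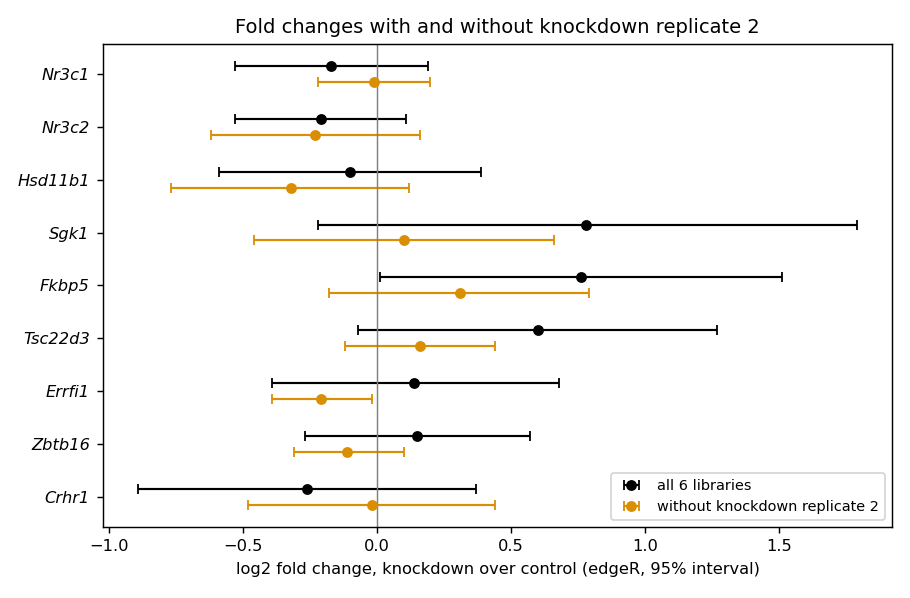
Log2 fold change of knockdown over control for the 9 genes (x axis; points, edgeR estimates; bars, 95% intervals), with all 6 libraries (black) and without knockdown replicate 2 (orange). Sgk1, Fkbp5 and Tsc22d3 were at 0.78, 0.76 and 0.6 with all libraries and at 0.31 or less without that library.

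By control mean in FPKM the 9 genes ran from Nr3c2 (21.5) through Sgk1 (11.8), Nr3c1 (10.7), Errfi1 (10.7), Zbtb16 (9.47), Tsc22d3 (8.92), Crhr1 (7.01) and Fkbp5 (4.38) to Hsd11b1 (4.03). The control libraries of neighbours in this order did not overlap for 3 of the 8 neighbouring pairs, Nr3c2 and Sgk1, Errfi1 and Zbtb16, and Crhr1 and Fkbp5. Exact label permutation, run as for Fkbp5, gave p of 0.2 to 1.0 over the 9 genes.

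Set against the whole transcriptome, the target genes lay at the upper edge of what distinguished knockdown replicate 2. Among the 13682 tested genes averaging 1 FPKM or more, the log2 ratio of FPKM + 1 in that library to the median of the other 5 had a median of -0.03, with the 5th percentile at -0.42 and the 95th at 0.38. On this scale Sgk1 was at 1.59, with 25 genes above it, Fkbp5 at 1.15, with 64 above it, and Tsc22d3 at 1.01, with 89 above it. Errfi1 was at 0.65 and Zbtb16 at 0.51, at percentiles 98.4 and 97.2. Nr3c1, at -0.55, and Crhr1, at -0.78, were at percentiles 2.58 and 0.892. Of the 9 genes, 3 were at least 1.5-fold above the next library in knockdown replicate 2. The share was 2.33% of all tested genes and 0.862% of the 13682. None of the 9 was at least 1.5-fold below the next library, against 3.35% of all tested genes and 1.37% of the 13682. With counts scaled by edgeR's TMM factors, 4 of the 9 were at least 1.5-fold above, against 0.906% of the 13682. A single library allows no test of its difference from the rest.

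**Figure D3:**
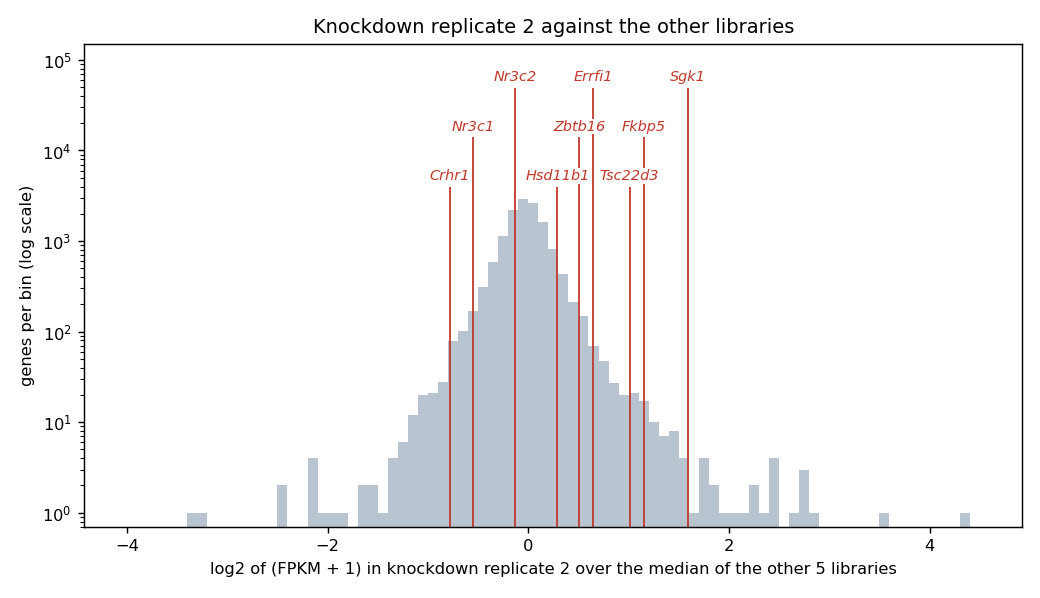
Distribution over 13682 genes (y axis, genes per bin of 0.1, log scale) of the log2 ratio of FPKM + 1 in knockdown replicate 2 to the median of the other 5 libraries (x axis), with red lines at the 9 genes. Sgk1 (1.59), Fkbp5 (1.15) and Tsc22d3 (1.01) lie far to the right of the bulk, Nr3c1 (-0.55) and Crhr1 (-0.78) to its left.

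A list of 26 further glucocorticoid target genes showed the same library at the top. The list was drawn up with earlier results of these data known, so its shares are a description and not independent evidence. All 26 were tested, 22 with a positive and 4 with a negative log2 fold change, and the median was 0.4, where the median over all tested genes was 0. None was called at an adjusted edgeR p under 0.05. At an unadjusted p under 0.05, 6 were higher, against 3.03% of all tested genes, and 0 lower, against 3.16%. With all 6 libraries, 3 of the 26 were higher without overlap of the groups, against 5.47% of all tested genes. None was lower without overlap, against 7.5%. Without knockdown replicate 2, 12 were higher and 14 lower, with a median of -0.01. In that fit 3 were higher at an unadjusted p under 0.05 (against 2.03% of all tested genes) and 1 lower (2.47%). Knockdown replicate 2 was the highest of the 6 libraries for 21 of the 26 genes (80.8%, against 19.8% of all tested genes). It was at least 1.5-fold above the next for 14 (53.8%, against 2.33%, and 0.862% of tested genes averaging 1 FPKM or more). None of the other 5 libraries was the highest for more than 3 of the 26. The count of 6 at an unadjusted p under 0.05 also moved with other libraries. It was 11 without knockdown replicate 1 (against 3.02% of all tested genes), 10 without knockdown replicate 3 (2.3%), 4 without control replicate 3 (2.28%) and 2 without control replicate 2 (4.07%). Without control replicate 1, 2 were higher (2.16%) and 2 lower (2.57%). It was 7 with DESeq2 (3.25%), 1 or 2 in the 4 limma fits of levels (1.87% to 2.59%), 1 with a term for the libraries with Y-linked counts (2.48%) and 1 in the libraries without such counts (2.9%).

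The 4 most abundant of the 26 followed that order. Glul, glutamine synthetase, was at 235, 306 and 230.4 FPKM in the knockdown libraries, against 223, 221 and 234 FPKM in the controls. Ndrg2, an astrocyte-enriched gene, was at 180.5, 220.2 and 159 FPKM in the knockdown libraries, against 157, 155 and 159 FPKM in the controls. Fam107a, an actin-binding protein gene induced by stress hormones in the brain, was at 62.1, 177 and 79.5 FPKM in the knockdown libraries, against 49.1, 62.3 and 61.1 FPKM in the controls. Mt1, a metal-binding metallothionein, was at 40.2, 92.7 and 48.9 FPKM in the knockdown libraries, against 33.1, 33.1 and 40.5 FPKM in the controls. In all 4 genes knockdown replicate 2 was the highest library, by 1.22-fold to 2.23-fold over the next, and the edgeR log2 fold changes of 0.21 to 0.91 had adjusted p of 0.792 to 0.812. Further gaps, in genes chosen after their values were seen, were those of the lipid droplet gene Plin4 (8.92-fold above the next library), the hypoxia pathway gene Hif3a (6.7-fold), the sulfotransferase gene Sult1a1 (4.71-fold), the cell cycle inhibitor gene Cdkn1a (4.04-fold) and Ddit4, an inhibitor of mTOR signalling (2.06-fold). Plin4 was at 0.459, 8.85 and 0.991 FPKM in the knockdown libraries, against 0.417, 0.327 and 0.732 FPKM in the controls. The 5 genes that did not peak in knockdown replicate 2 were Per1, Dusp1, Cdkn1c, Bcl6 and Nedd9. Cdkn1c was highest in control replicate 3, the library with choroid plexus transcripts, at 10.8 FPKM.

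**Figure D4:**
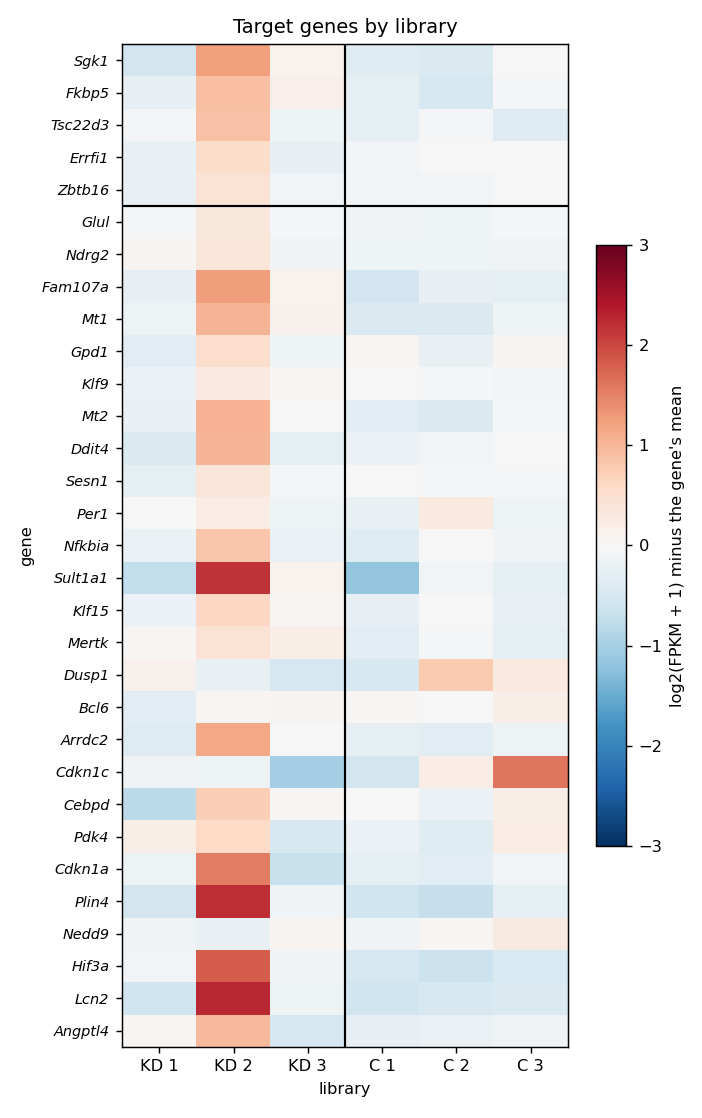
Colour map of log2(FPKM + 1) minus the gene's mean over the 6 libraries (colour scale) for 5 target genes of the set described here (above the black line) and 26 further glucocorticoid targets ordered by mean level (below it), in the knockdown (KD 1 to 3) and control (C 1 to 3) libraries. The KD 2 column is the highest for 5 of 5 and 21 of 26 genes.

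The genes whose library profiles were nearest to those of the 2 members with the widest range, by the root mean square difference of centred log2(FPKM + 1) over 6 libraries and among 12287 genes of at least 1 FPKM, were mostly other targets. Nearest to Sgk1 were the arrestin-domain gene Arrdc2 (0.11), Mt2 (0.16) and Fkbp5 (0.19). Nearest to Fkbp5 were Mt2 (0.09), Mt1 (0.11) and the lipoxygenase gene Alox12b (0.11). Mt2 was at 25.8, 63.3 and 30.7 FPKM in the knockdown libraries, against 23.8, 22.1 and 29.2 FPKM in the controls. Arrdc2, Mt1 and Mt2 belong to the list of 26, Alox12b does not. Sgk1 and Fkbp5 both peaked in knockdown replicate 2, so genes with profiles near theirs peak there too. The list itself was drawn up with earlier results of these data known.

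Transcripts of the proteins that fold the receptor and pass on its signal did not share the peak. Of 22 chaperones and coregulators, 9 had a positive and 13 a negative log2 fold change, with a median of -0.03, and 0 passed at an adjusted edgeR p under 0.05. At an unadjusted p under 0.05, 1 was higher, against 3.03% of all tested genes, and 0 lower, against 3.16%. Knockdown replicate 2 was the highest library for 0 of the 22 and the lowest for 13 (59.1%, against 24.1% of all tested genes). Hsp90ab1, the constitutive Hsp90, was at 428, 434 and 429.5 FPKM in the knockdown libraries, against 447, 423 and 429 FPKM in the controls, and Hsp90aa1, the inducible form, at 235, 213 and 241 FPKM, against 250.3, 258 and 233 FPKM. Stip1, which joins Hsp70 to Hsp90, was at 70.99, 57.3 and 69.6 FPKM in the knockdown libraries, against 76.5, 68.7 and 70.97 FPKM in the controls. Hspa8, the constitutive Hsp70, was the member at an unadjusted p under 0.05, at 289, 237 and 289 FPKM in the knockdown libraries, against 225, 225 and 222 FPKM in the controls (log2 fold change 0.3, SE 0.09, edgeR adjusted p = 0.792).

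Genes of steroid metabolism and of the stress peptides were mostly low, and none was called. Of 15 steroid genes listed, 11 were in the table and 8 were tested, 4 with positive and 4 with negative log2 fold changes. The median was -0.08, with 0 calls at an adjusted edgeR p under 0.05. At an unadjusted p under 0.05, 0 were higher, against 3.03% of all tested genes, and 1 lower, against 3.16%. Srd5a1, the reductase that inactivates corticosterone and makes neurosteroids, was that gene, at 2.13, 1.7 and 2.25 FPKM in the knockdown libraries, against 3.36, 2.81 and 3.02 FPKM in the controls. Its log2 fold change was -0.57 (SE 0.168, edgeR adjusted p = 0.792), and -0.47 without knockdown replicate 2. Its groups did not overlap. Of the 8 steroid genes tested, 1 was lower without overlap, against 7.5% of all tested genes, and 1 higher, against 5.47%. Abcb1a, a blood-brain barrier transporter of corticosteroids, was at 5.55, 6.95 and 5.33 FPKM in the knockdown libraries, against 5.07, 4.79 and 5.28 FPKM in the controls. Star was at 1.68 to 2.01 FPKM, against 1.92 to 2.26 FPKM in the controls, and Tspo at 1.54 to 3.56 FPKM, against 1.72 to 6.78 FPKM. Of 11 CRH system and pituitary-adrenal genes, 6 were tested, 2 higher and 4 lower, with a median of -0.28 and 0 past either threshold; the median was 0.08, with 4 higher and 2 lower, once a term for the libraries with Y-linked counts was added. Crhbp, the CRH-binding protein gene, was at 8.86 to 10.5 FPKM in the knockdown and 9.0 to 9.23 FPKM in the controls, and Crh at 0.868 to 1.17 FPKM, against 0.892 to 1.76 FPKM. Crhr2 was at 0.363 to 0.787 FPKM, against 0.307 to 1.91 FPKM in the controls, and Pomc at 0.328 to 0.481 FPKM, against 0.323 to 0.633 FPKM.

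Clock and activity genes, which also respond to hormone and handling, did not follow the target genes. Of 14 clock genes tested, 12 had a positive and 2 a negative log2 fold change, with a median of 0.12 and 0 calls at an adjusted edgeR p under 0.05. At an unadjusted p under 0.05, 2 were higher, against 3.03% of all tested genes, and 1 lower, against 3.16%. With a term for the libraries with Y-linked counts, 7 were higher and 7 lower. Knockdown replicate 2 was the highest library for 3 of the 14 (21.4%, against 19.8% of all tested genes). Nr1d1, a repressor of the clock loop, was at 33.2, 29.8 and 32.7 FPKM in the knockdown libraries, against 26.6, 29.7 and 24.9 FPKM in the controls, Tef at 43.98 to 48.3 FPKM, against 43.5 to 46.7 FPKM, Cry2 at 19.9 to 22.5 FPKM, against 18.5 to 20.9 FPKM, and Hlf at 17.5 to 24.7 FPKM, against 16.4 to 24.5 FPKM. Of 15 immediate early genes, 0 had a positive and 15 a negative log2 fold change, with a median of -0.41. At an adjusted edgeR p under 0.05, 0 were called. At an unadjusted p under 0.05, 5 were lower, against 3.16% of all tested genes, and 0 higher, against 3.03%. Without overlap of the groups, 3 were lower, against 7.5% of all tested genes, and 0 higher, against 5.47%. The negative direction depended on the libraries: without control replicate 2 the median was -0.16. With a term for the libraries with Y-linked counts the median was 0.2. Knockdown replicate 2 was the highest library for 0 of these 15 genes. Arc was at 48.5, 26.1 and 32.6 FPKM in the knockdown libraries, against 52.7, 84.1 and 77.03 FPKM in the controls. Egr1 was at 18.9 to 31.6 FPKM, against 26.7 to 48.3 FPKM in the controls, Nr4a1 at 11.9 to 20.2 FPKM, against 18.4 to 37.8 FPKM, and Junb at 22.7 to 33.2 FPKM, against 24.6 to 42.6 FPKM.

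Cell type markers were set beside these values because Sgk1, Fkbp5 and Tsc22d3 are also expressed in glia and vessels. In knockdown replicate 2 the summed levels of the glial and vessel lists lay inside the range of the other 5 libraries, but single markers went both ways. The 10 astrocyte markers summed to 523 FPKM there, against 506 to 546 FPKM in the other 5. That library was the lowest for 5 of the 10, among them the water channel gene Aqp4 at 8.35 FPKM, against 13.2 to 26.6 FPKM, and the highest for 3, among them the connexin gene Gjb6 at 22.7 FPKM, against 12.3 to 16.8 FPKM. The 9 microglia markers summed to 134 FPKM, against 114 to 138 FPKM. The same library was lowest for 5 of the 9, among them P2ry12, a purine receptor gene, at 5.59 FPKM, against 12.4 to 14.1 FPKM, and the highest for the complement genes C1qa, at 33.2 FPKM, and C1qb, at 21.9 FPKM. The 12 endothelial and pericyte markers summed to 131 FPKM, against 94.2 to 143 FPKM, with that library the lowest for 5 and the highest for 3. Over all tested genes it was the lowest for 24.1% and the highest for 19.8%. These marker genes were named after their values were seen. The sum of 10 oligodendrocyte markers was 699, 703 and 685 FPKM in the knockdown libraries, against 1299.8, 938 and 832 FPKM in the controls, so it separated the groups and did not single out knockdown replicate 2. The sum of 10 excitatory neuron markers was highest in knockdown replicate 2, at 973 FPKM, against 767 to 911 FPKM in the other 5 libraries. That library was the highest for 5 of these 10 markers and the lowest for 0. The sum of 10 GABAergic interneuron markers was lowest there, at 377 FPKM, against 400.2 to 435 FPKM. Single GABAergic markers did not follow this sum: knockdown replicate 2 was the lowest for 1 of the 10, and control replicate 1 for 4. No marker of these lists was at 0 in any library. The part of cell makeup in the target gene levels was not tested.

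**Figure D5:**
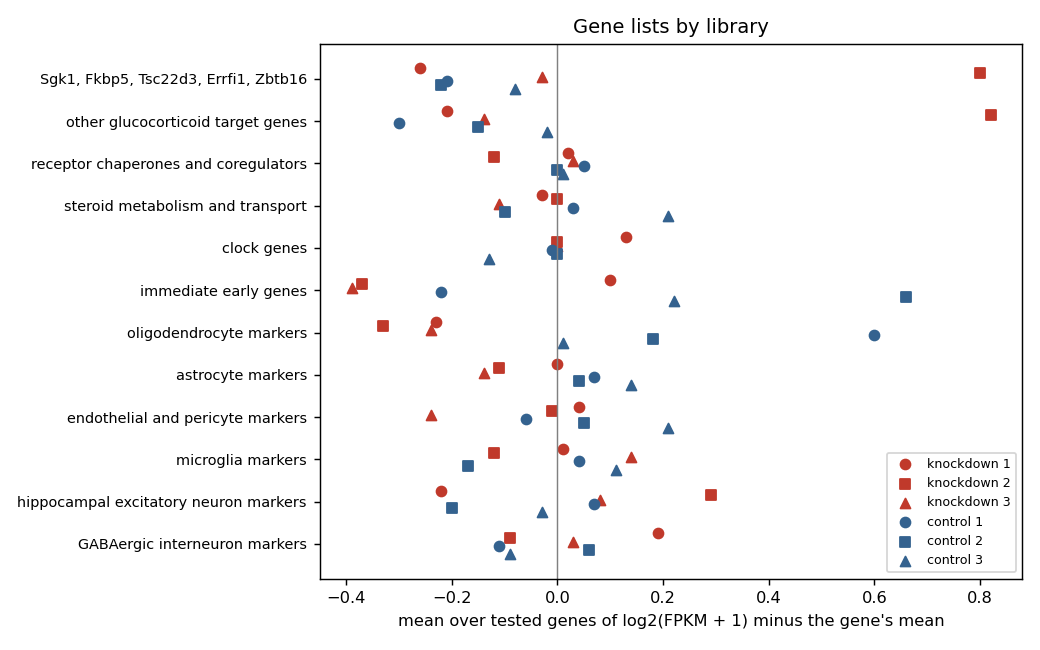
Mean over the tested genes of each list of log2(FPKM + 1) minus the gene's mean (x axis) in the knockdown (red) and control (blue) libraries, 1 row per list. In knockdown replicate 2 (red squares) the 5 target genes are at 0.8 and the 26 further targets at 0.82, where the other 5 libraries lie between -0.3 and -0.02.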

How the data were processed

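The deposited table gives an estimated count and an FPKM value per gene for 6 libraries, per the file headers. Per the labels' protocols, poly(A) RNA was made into strand-marked libraries and sequenced as read pairs. Alignment and assembly tools listed in the submitters' processing notes are HISAT2 2.2.1 and StringTie 2.1.6, with cutadapt 1.9, edgeR, DESeq2 and build GRCm39 also listed. Annotation release and strand setting: not given in the sources used here. The estimated counts the authors deposited were whole, so rounding changed none; they pile up at 4 (1140 genes at 4 against 576 at 3 and 390 at 5 in control replicate 2), so they were also tested divided by 4. FPKM values are the authors' and were used for levels.

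Counts were fitted with edgeR 4.0.16 (R 4.3.3; filterByExpr, TMM factors of 0.9895 to 1.017, quasi-likelihood F test, Benjamini-Hochberg over 20946 genes, threshold 0.05). Genes varied between libraries by a common biological coefficient of 28.6%. Standard errors come from the fold change and F statistic. No library pair agreed within sampling noise (lowest chi-square per gene 25.2). The fitting code was tested on simulated data with known changes. DESeq2 1.42.0, limma 3.58.1 and other settings were alternatives.

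The members and the gene lists were chosen with earlier results of these data known. Named genes are all 9 members, the 4 most abundant tested genes of each further list, and the 3 nearest profiles of the 2 members with the widest range; others are said to be chosen after their values were seen. Promoter sequences are from RefSeq (GRCm38.p6), another build than the table's, so no coordinates were carried between them.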

Additional observations from a re-analysis of the deposited data

How the results depend on the processing

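Over 17 alternatives none of the 9 genes was called, with a smallest adjusted p of 0.456, and 6 of the 9 kept their sign throughout. The log2 fold changes ranged from 0.1 to 1.12 for Sgk1, 0.31 to 1.01 for Fkbp5 and 0.16 to 0.79 for Tsc22d3, limma differences on the log2(FPKM + 1) scale included. Without knockdown replicate 2, Zbtb16 turned to -0.11 and Errfi1 to -0.21, and without knockdown replicate 1 Hsd11b1 turned to 0.09; the cause was not tested. With each library left out in turn, Zbtb16 ranged from -0.11 to 0.29, Errfi1 from -0.21 to 0.29 and Hsd11b1 from -0.32 to 0.09. In those same fits 0 of the 9 genes and 0 of the 91 genes of the further lists were called. DESeq2 called 1 of those 91, Arc (log2 fold change -0.98, adjusted p = 0.01). It called 0.486% of the 15221 genes to which it gave an adjusted p. Replicate numbers are shared between groups, but same-numbered libraries did not deviate together (correlations of -0.0117, -0.0523 and -0.0994). With a replicate block, 0 of 9 genes were called, Fkbp5 was at 0.66 (unadjusted p = 0.104, against 0.0482 without the block), Tsc22d3 at 0.52 (0.0293, against 0.0707), and 1048 genes had an unadjusted p under 0.05, against 1296 without the block. With TMM-scaled count levels, an alternative chosen after seeing the data, knockdown replicate 2 was still the highest library for 21 of the 26 further targets. In the 4 libraries without Y-linked counts, where the lone control is assumed to vary like the rest, Sgk1 was at 0.88 and Fkbp5 at 0.75. Groups of 3 limit precision: the 95% interval for Sgk1 ran from -0.22 to 1.79, which spans both no difference and a large one.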

Other observations

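The genes that most set knockdown replicate 2 apart, chosen here after their values were seen, included several outside the lists. Apod, a lipid-binding apolipoprotein, was at 26.2, 215 and 28.3 FPKM in the knockdown libraries, against 35.4, 31.1 and 52.1 FPKM in the controls. Txnip, a thioredoxin inhibitor, was at 4.93, 31.3 and 5.31 FPKM, against 7.4, 5.22 and 6.7 FPKM in the controls. Etnppl, a phosphoethanolamine lyase of astrocytes, was at 0.363, 4.5 and 1.07 FPKM, against 0.306, 0.178 and 0.3 FPKM in the controls. Lrg1, a secreted leucine-rich glycoprotein, was at 0.215, 6.22 and 0.806 FPKM, against 0.281, 0.751 and 0.29 FPKM in the controls. In each of these 4 genes knockdown replicate 2 was the highest library. The groups overlapped for Apod, Txnip and Lrg1. They did not for Etnppl, where the knockdown was higher, as in 5.47% of all tested genes.

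Hif3a, also picked after its values were seen, did not rest on that library alone for its direction, though it was not called. It was at 0.931, 6.24 and 0.91 FPKM in the knockdown libraries, against 0.436, 0.312 and 0.484 FPKM in the controls. All 3 knockdown libraries thus lay above all 3 controls, as they did for 5.47% of all tested genes. The edgeR log2 fold change was 2.74 (adjusted p = 0.792) with all libraries and 1.18 (unadjusted p = 0.00237, adjusted p = 0.942) without knockdown replicate 2.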
